A study of Mus musculus with 13 samples.

Results

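The 9 genes described here encode complement components and complement receptors: the C1q chains C1qa, C1qb and C1qc, the components C3 and C4b, the receptors for complement fragments C3ar1 and C5ar1, and the chains of complement receptor 3, Itgam and Itgb2. They were chosen by symbol, not by a measured value, and 9 of 9 were found among the 55291 gene symbols of the count tables. The counts came from 13 bulk RNA sequencing libraries, each from the CA1 region of 1 organotypic entorhino-hippocampal tissue culture, a slice of hippocampus and entorhinal cortex kept on a membrane, made from wildtype C57BL/6 mice of postnatal day 4 to 5 and matured for a minimum of 18 days. The groups were 5 control cultures without a lesion, 4 cultures after SCL, in which the Schaffer collaterals from CA3 to CA1 were cut, and 4 cultures after ECL, in which the input from the entorhinal cortex was cut, with lesioned tissue collected 3 days after the cut. The cut itself is the only treatment, the scar was left out of the isolate, and the slice has no blood supply. The sample titles name CA1, whereas the extraction text kept with them names the dentate gyrus. Whether cultures of a group came from different animals is not given in the sources used here.

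Complement is a cascade of proteins that tags surfaces for removal. C1q, assembled from its A, B and C chains, recognizes a target and starts the classical pathway, C4 and C3 are cleaved and attach to the target, and phagocytes take it up through receptors for the attached C3 fragments. In brain, microglia are the main source of C1q and carry complement receptor 3, astrocytes are a known source of C3 and C4, and the pathway is known for its part in removing synapses.

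Controls held 14371152 to 21092612 counts, SCL libraries 16405517 to 56786613 and ECL libraries 20210165 to 46449937. No 2 libraries held identical counts, and the sex entered in the column headings matched sex-linked marker genes in 13 of 13. Controls were 3 female and 2 male, SCL cultures 3 female and 1 male, and ECL cultures 1 female and 3 male. Control replicates 4 and 5 lay farthest from the lesioned libraries on the first principal component, which held 49.5% of the variance. CA1 and neuronal markers were measured in each group, with 5 of 5 CA1 genes above the minimum of counts. So were 2 of 4 CA3 genes and 1 of 4 dentate granule cell genes, Prox1. Levels below are CPM, read counts scaled to library size with TMM factors over 13 libraries, and a gene was called at an adjusted p-value under 0.05. In controls the dentate genes Prox1, Calb2, Dsp and C1ql2 had means of 16.3, 5.30, 0.73 and 0.41 CPM. The 5 CA1 genes had means from 10.0 (Wfs1) to 121 CPM (Mpped1). Monocyte and neutrophil markers summed to at most 5.62 CPM, with Elane at 0 in controls and S100a9 at 0 after ECL, and the lymphocyte markers to at most 5.41 CPM.

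The C1q genes rose after both lesions, the receptor genes C3ar1, Itgam and Itgb2 rose after SCL, and no change of C3, C4b or C5ar1 was called. The SCL calls of C3ar1 and Itgb2 held in only 17 and 13 of 21 alternative analyses, and that of Itgam in 21. After SCL, 6 of 9 members were called higher in edgeR's quasi-likelihood test, where 13.1% of the 11438 genes tested were called higher and 11.8% lower. After ECL, 3 of 9 members were called higher, against 15.2% higher and 12.5% lower of 11212 genes tested. None of the 9 was called lower. The median log2 fold change of the members was 0.76 after SCL and 0.31 after ECL, against 0.01 and -0.01 over all genes tested. Both comparisons share the 5 controls, so their values are set side by side and are not independent of each other. With TMM factors taken over all symbols, the median of all genes shifted to 0.21 after SCL and 0.18 after ECL, and the calls split into 2516 higher and 596 lower after SCL, against 1504 and 1344 with the scaling used here, and into 2435 and 695 after ECL, against 1708 and 1406. The members' calls under that scaling were the same after SCL, and after ECL C3ar1 was called as well.

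**Figure D1:**
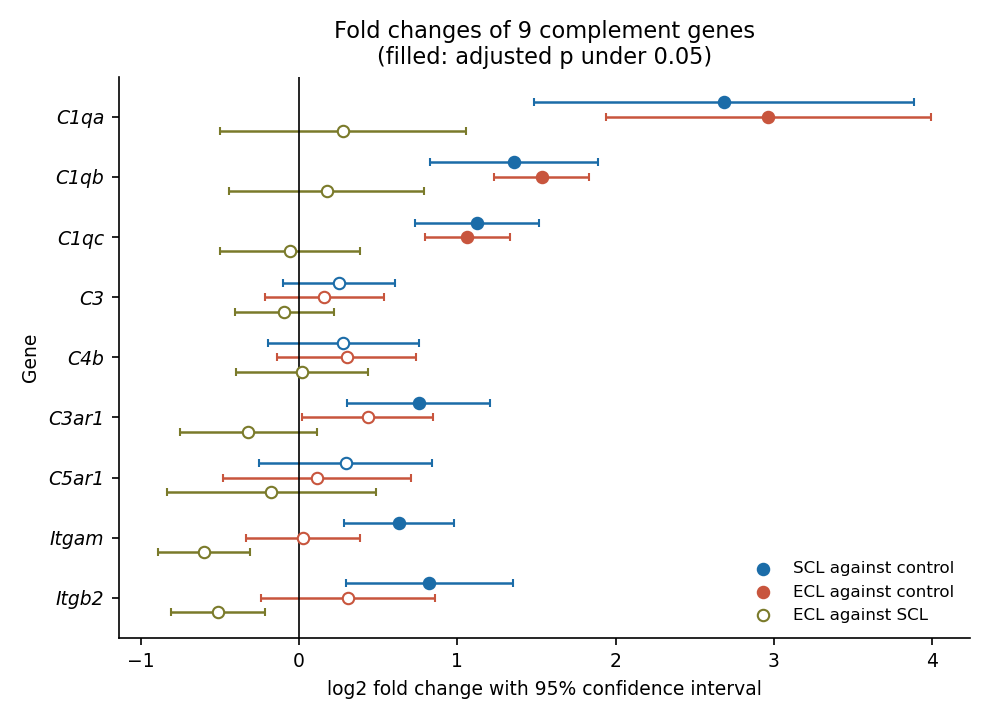
Log2 fold changes of the 9 complement genes (horizontal axis, with 95% confidence intervals from edgeR) for SCL against control, ECL against control and ECL against SCL, with filled points for adjusted p-values under 0.05. The 3 C1q genes lie furthest to the right after both lesions, from 1.06 to 2.97, and the intervals of Itgam and Itgb2 lie below 0 for ECL against SCL.

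The C1q genes lie side by side on chromosome 4 of GRCm38, on the minus strand, between 136880129 and 136898803: C1qb at chr4:136880129-136886187, C1qc at chr4:136889804-136893065 and C1qa at chr4:136895917-136898803. Promoter windows were taken from RefSeq (GRCm38.p6). The 250 bases before each start were searched on both strands for GAGGAA, the core bound by the myeloid factor PU.1, which 23.3% of 32851 windows hold. No window of C1qa was analysed. The stretches of C1qb and C1qc are shown with the match in capitals, 5′ to 3′ on the gene's strand. TTCCTC is GAGGAA read on the other strand.
C1qb, chr4:136886201-136886300: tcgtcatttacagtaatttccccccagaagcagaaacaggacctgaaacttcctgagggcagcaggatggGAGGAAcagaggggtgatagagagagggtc
C1qc, chr4:136893066-136893164: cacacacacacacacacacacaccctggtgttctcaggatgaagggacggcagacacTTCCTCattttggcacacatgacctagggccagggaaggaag
The C1qb match lies 30 to 25 bases before the RefSeq start, and the C1qc match 193 to 188 bases before the RefSeq start of C1qc. The C1qc stretch shown stops short of that start, just before the gene interval given above. The full C1qc window is chr4:136892915-136893164. A match is a run of letters and not a measured binding site.

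C1qa, the gene of the C1q A chain, showed the steepest difference of the 9. Its levels in control replicates 1 to 5 were 20.1, 31.6, 26.8, 3.49 and 6.25 CPM. After SCL they were 59.1, 107, 217 and 73.8 CPM, and after ECL 93.1, 133, 157 and 167 CPM. Each of the 8 lesioned libraries lay above each control, SCL replicate 3 was the highest library, and control replicates 4 and 5 were the lowest. The log2 fold change was 2.68 ± 0.56 (SE) after SCL (edgeR, adjusted p = 0.00601), a fold of 6.42 with a 95% confidence interval from 2.79 to 14.8. After ECL it was 2.97 ± 0.48 (edgeR, adjusted p = 0.000779), a fold of 7.82 with an interval from 3.83 to 15.9. Without control replicates 4 and 5, an alternative chosen after their values were seen, the log2 fold changes were 2.11 (adjusted p = 0.0111) and 2.38 (adjusted p = 8.65e-05).

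C1qb, the gene of the B chain, was measured at 133, 143, 128, 109 and 126 CPM in the controls. After SCL it was at 279, 258, 574 and 204 CPM, and after ECL at 322, 389.9, 326 and 435 CPM. The groups did not overlap with the controls, and SCL replicate 3 again stood above its group. The log2 fold change was 1.36 ± 0.25 (SE) after SCL (edgeR, adjusted p = 0.00340) and 1.53 ± 0.14 after ECL (edgeR, adjusted p = 2.39e-05), or folds of 2.57 and 2.89. Without SCL replicate 3 the log2 fold change after SCL was 0.96 (adjusted p = 0.00581).

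C1qc, the gene of the C chain, was at 101, 109.8, 95.3, 93.8 and 91.4 CPM in the controls. It was at 197, 189, 316 and 154 CPM after SCL, and at 183, 205, 196 and 231 CPM after ECL. Every lesioned library was above every control. The log2 fold change was 1.12 ± 0.18 (SE) after SCL (edgeR, adjusted p = 0.00223) and 1.06 ± 0.13 after ECL (edgeR, adjusted p = 0.000123), about a doubling, with folds of 2.18 and 2.09. The 3 C1q genes were called after both lesions in 21 of 21 alternative analyses.

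**Figure D2:**
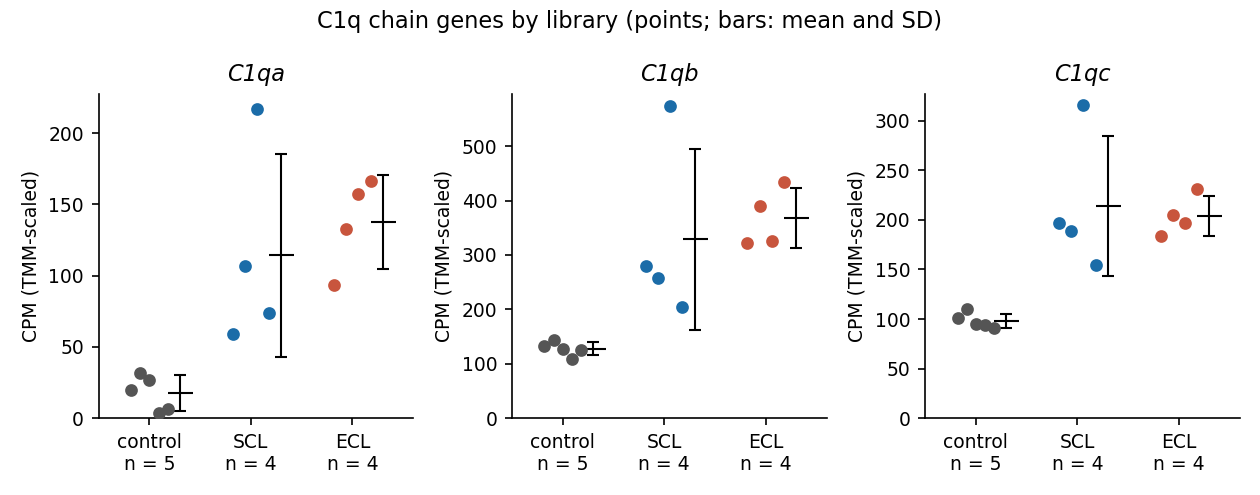
CPM of C1qa, C1qb and C1qc (vertical axes, linear from 0) in each library of the control, SCL and ECL groups, with a point per library and the mean ± SD beside the points. No lesioned library overlaps with the 5 controls for any of the 3 genes, and SCL replicate 3 is the highest point for each.

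The C1q transcripts are short, with 1040 exon bases for C1qa, 1088 for C1qb and 1931 for C1qc in GENCODE M21, which places them in the shortest of 4 equal classes of tested genes by length. In that class 27.9% of genes were called higher after SCL and 33.8% after ECL, and in the longest class 3.15% and 3.58%. From the shortest to the longest class, the median log2 fold change was 0.29, 0.08, -0.05 and -0.21 for SCL, and 0.33, 0.06, -0.06 and -0.19 for ECL. With an offset per library for length and GC content, added after this trend was seen, the log2 fold changes after SCL were 2.41 for C1qa, 0.94 for C1qb and 0.80 for C1qc (edgeR, adjusted p of 0.00414, 0.00872 and 0.00705). After ECL they were 2.61, 1.05 and 0.67, and the 3 were called there as well.

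The balance between the chains was compared as well. C1qc and C1qb deviated together from their group means over the 13 libraries (Pearson r = 0.979 of log2 CPM), whereas C1qa did so less closely with either (0.575 with C1qb and 0.564 with C1qc). Among the members, C1qa deviated most closely with C4b (0.702), and both genes were lowest in control replicates 4 and 5. The 13 libraries share depth and tissue composition within themselves, so the coefficients are descriptions. The ratio of C1qa to C1qb was 0.0364 to 0.223 in controls, 0.213 to 0.416 in SCL libraries and 0.290 to 0.484 in ECL libraries. The SCL and control ranges overlap, at control replicate 2 and SCL replicate 1, and the ECL range lies above the controls. The mean log2 ratio was -3.22 ± 1.21 (SD, n = 5) in controls, -1.59 ± 0.43 (n = 4) after SCL and -1.44 ± 0.31 (n = 4) after ECL. In exact two-sided permutation tests, chosen after the values were seen and adjusted over 9 tests, the difference from controls was 1.63 after SCL (p = 0.0317, adjusted p = 0.0571) and 1.78 after ECL (p = 0.0159, adjusted p = 0.0357). The smallest p that 5 against 4 libraries allow is 0.0159. The log2 ratio of C1qa to C1qc differed from controls by 1.81 after SCL and by 2.25 after ECL (exact permutation tests, adjusted p = 0.0357 each). Control replicates 4 and 5 had the lowest ratios of C1qa to C1qb, and without them the control mean was -2.37, so that the differences were 0.78 for SCL and 0.93 for ECL. For C1qa to C1qc they were then 0.93 and 1.37, and 3 controls against 4 libraries cannot give an exact p below 0.0571. The ratio of C1qc to C1qb was 0.728 to 0.858 in controls, 0.552 to 0.757 after SCL and 0.527 to 0.604 after ECL. The log2 value of that ratio differed from controls by -0.47 after ECL (exact permutation test, adjusted p = 0.0357) and by -0.18 after SCL, which did not pass (exact permutation test, adjusted p = 0.143). None of the 3 chain ratios passed between ECL and SCL (exact permutation tests, adjusted p from 0.129 to 0.629).

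**Figure D3:**
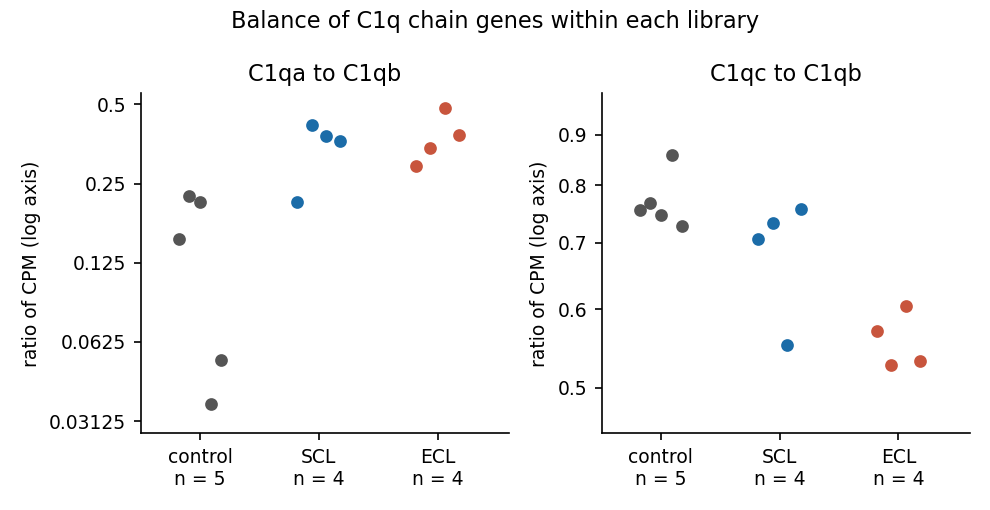
Ratio of CPM of C1qa to C1qb (left) and of C1qc to C1qb (right) in each library, on log axes, with a point per library. The ratio of C1qa to C1qb lies at 0.223 or lower in the 5 controls and at 0.290 or higher in the 4 ECL libraries, and the ratio of C1qc to C1qb lies at 0.604 or lower after ECL.

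C3, the component whose cleaved fragment marks targets for uptake, lies at chr17:57203970-57228136 on the minus strand. Its promoter window is shown for the match in capitals to TTGCNNAA, a sequence recognized by C/EBP factors, which 9.56% of windows hold. The match lies 45 to 38 bases before the RefSeq start.
C3, chr17:57228137-57228236: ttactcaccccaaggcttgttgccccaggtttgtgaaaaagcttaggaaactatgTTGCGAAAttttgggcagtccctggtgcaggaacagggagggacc
C3 was measured at 50.4, 45.9, 42.6, 48.4 and 29.7 CPM in controls, at 52.0, 58.5, 48.2 and 48.3 CPM after SCL, and at 59.7, 42.4, 48.4 and 42.5 CPM after ECL. The 3 groups overlapped, with control replicate 5 lowest and ECL replicate 1 highest. The log2 fold change was 0.25 with a 95% confidence interval from -0.10 to 0.61 after SCL (edgeR, adjusted p = 0.272). After ECL it was 0.16 with an interval from -0.22 to 0.54 (edgeR, adjusted p = 0.530).

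C4b, the gene of complement component C4, lies at chr17:34728380-34743882 on the minus strand. Of its 100-base exon stretches 84.8% occur in no other gene, and the rest are shared with C4a, its neighbouring copy, so that reads can be split between them. C4a itself was at a mean of 6.17 CPM in controls, 6.23 after SCL and 5.02 after ECL, far below C4b. C4b was at 132, 175, 162, 89.8 and 95.8 CPM in controls, at 114, 186, 147 and 190.4 CPM after SCL, and at 155, 129, 200.2 and 157 CPM after ECL. Control replicates 4 and 5 were lowest for C4b as well, and the groups overlapped. The log2 fold change was 0.28 after SCL (interval -0.20 to 0.76, edgeR, adjusted p = 0.371) and 0.30 after ECL (interval -0.14 to 0.74, edgeR, adjusted p = 0.293). Without control replicates 4 and 5 these were 0.02 and 0.03. C3 and C4b were called in 0 of 21 alternatives after either lesion.

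C3ar1, the receptor for the soluble fragment C3a, lies at chr6:122847138-122856161 on the minus strand, and no searched motif was found in its window. It was at 55.4, 39.7, 38.4, 32.4 and 30.0 CPM in controls, at 60.2, 48.3, 87.8 and 68.4 CPM after SCL, and at 43.4, 61.4, 44.6 and 61.1 CPM after ECL. Of the 4 SCL libraries 3 lay above each control, and of the 4 ECL libraries 2 did. C3ar1 rose by 0.76 ± 0.21 (SE) on the log2 scale after SCL (edgeR, adjusted p = 0.0205), and the value after ECL was 0.43 ± 0.19 (edgeR, adjusted p = 0.110). The SCL call rested on few libraries: without SCL replicate 3 the value was 0.59 (adjusted p = 0.0752), without control replicates 4 and 5 it was 0.56 (adjusted p = 0.0883), and with a replicate block 0.67 (adjusted p = 0.0506). After ECL the value without control replicate 1, the highest control, was 0.59 (adjusted p = 0.0332).

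C5ar1, the receptor for C5a, lies at chr7:16246743-16259540 on the minus strand in GENCODE M21. Its RefSeq window, chr7:16259339-16259588, lies mostly within that interval, and it too held none of the searched motifs. C5ar1 had the lowest level of the 9, 6.25 to 9.54 CPM in controls, 6.95 to 13.5 CPM in SCL libraries and 4.20 to 10.0 CPM in ECL libraries, which overlap. Its log2 fold change was 0.29 after SCL (interval -0.25 to 0.84, edgeR, adjusted p = 0.415) and 0.11 after ECL (interval -0.48 to 0.71, edgeR, adjusted p = 0.792). C5ar2, the second receptor for C5a, did not reach the minimum of counts used here. It was at a mean of 7.78 ± 3.57 CPM (SD, n = 5) in controls, 4.23 ± 1.91 after SCL (n = 4) and 1.96 ± 0.48 after ECL (n = 4). With edgeR's own filter on low counts in place of the minimum, C5ar2 stood at -0.81 on the log2 scale for SCL against control (adjusted p = 0.164) and fell by 1.91 after ECL (adjusted p = 0.00211), with all 4 ECL libraries below the 5 controls. Its counts were low, 67 to 240 in controls and 32 to 91 after ECL. Control replicates 4 and 5 were its highest libraries, at 13.1 and 9.74 CPM, and its value without them was not computed.

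Itgam and Itgb2 encode the alpha and beta chains that pair as complement receptor 3, and the beta chain also pairs with other integrin alpha chains of leukocytes. Itgam lies at chr7:128062640-128118491 and Itgb2 at chr10:77530252-77565708, both on the plus strand. The window before Itgam is shown because it holds GAGGAA at 2 places, 84 to 79 and 15 to 10 bases before the start, in capitals.
Itgam, chr7:128062540-128062639: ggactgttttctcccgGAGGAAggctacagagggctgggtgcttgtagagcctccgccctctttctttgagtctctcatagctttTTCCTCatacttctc
Promoter windows were used for 6 of the 9 members, and those of C1qa, C4b and Itgb2 were not analysed here. Of the other motifs searched, an interferon-stimulated response element (in 2.98% of windows), an NF-kappaB motif (1.21%) and the STAT motif TTCNNNGAA (7.02%) had no match in the 6 windows.

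Itgam was at 45.0, 32.7, 33.9, 28.4 and 42.4 CPM in controls, at 51.9, 61.6, 51.6 and 60.9 CPM after SCL, and at 32.8, 40.2, 34.8 and 40.0 CPM after ECL. Each SCL library lay above each control and each ECL library, while the ECL libraries lay within the control range. Itgam rose by 0.63 ± 0.16 (SE) on the log2 scale after SCL (edgeR, adjusted p = 0.0144), a fold of 1.55, and was called in 21 of 21 alternatives. After ECL the value was 0.03 ± 0.17 (interval -0.33 to 0.39, edgeR, adjusted p = 0.926). The annotated gene Gm49368 covers 68.7% of the exon bases of Itgam, and Gm49368 itself had 0 or 1 counts in each library, so the level of Itgam per length may leave out reads that fit both. Itgax, the alpha chain of complement receptor 4, was at 0 to 0.959 CPM in the 13 libraries.

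Itgb2 was at 19.7, 11.0, 9.73, 18.6 and 8.87 CPM in controls, at 21.0, 25.6, 24.4 and 24.9 CPM after SCL, and at 17.0, 18.0, 16.7 and 15.2 CPM after ECL. Control replicates 1 and 4 were close to the SCL libraries and the other 3 controls lower, and each SCL library lay above each control. Itgb2 rose by 0.82 ± 0.24 (SE) on the log2 scale after SCL (edgeR, adjusted p = 0.0275), and its value after ECL was 0.31 ± 0.26 (edgeR, adjusted p = 0.391). The SCL call was lost without control replicate 2, 3 or 5 (0.75, 0.73 and 0.70), without SCL replicate 2, 3 or 4 (0.79, 0.82 and 0.80), with a replicate block (0.76, adjusted p = 0.0527) and with the offset for length and GC content (0.65, adjusted p = 0.0849). Over the members, 5 of 9 lay above the controls without overlap after SCL, where 12.1% of genes tested did, and 3 of 9 after ECL, where 12.8% did.

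**Figure D4:**
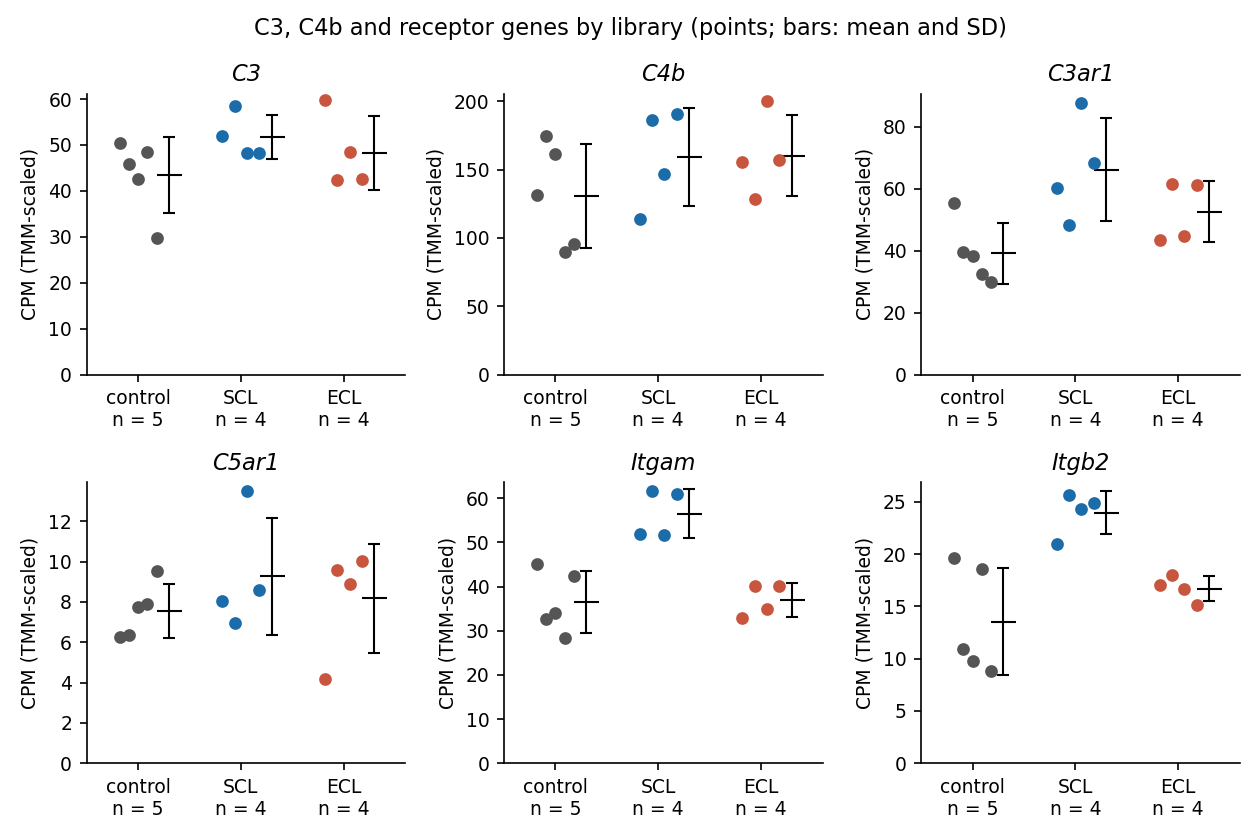
CPM of C3, C4b, C3ar1, C5ar1, Itgam and Itgb2 (vertical axes, linear from 0) in each library of the control, SCL and ECL groups, with a point per library and the mean ± SD beside the points. The 4 SCL libraries of Itgam, from 51.6 to 61.6 CPM, and of Itgb2, from 21.0 to 25.6 CPM, lie above all libraries of the other groups, and the groups of C3, C4b and C5ar1 overlap.

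Between the lesions, no member was called in edgeR's test, which called 0% of the 12232 genes tested, with 897 genes at an unadjusted p under 0.05. DESeq2 called 62 genes, Itgam among them. The log2 fold change of Itgam, ECL against SCL, was -0.60 (interval -0.89 to -0.31, edgeR, unadjusted p = 0.000786, adjusted p = 0.382, DESeq2 adjusted p = 0.0101). For Itgb2 the value was -0.51 (interval -0.81 to -0.21, edgeR, unadjusted p = 0.00297, adjusted p = 0.478, DESeq2 adjusted p = 0.0526). These 2 of 9 members lay below the SCL libraries without overlap, as did 2.27% of all genes tested. With sex as a term, since the ECL cultures were mostly male and the SCL cultures mostly female, the values were -0.71 for Itgam (edgeR, adjusted p = 0.234) and -0.53 for Itgb2 (edgeR, adjusted p = 0.351). C3ar1 had -0.32 (interval -0.76 to 0.11, adjusted p = 0.757). The C1q genes had 0.28 for C1qa (interval -0.50 to 1.06), 0.17 for C1qb (-0.44 to 0.79) and -0.06 for C1qc (-0.50 to 0.38), intervals that leave room for a difference in either direction. Without SCL replicate 3 these became 0.79 for C1qa (edgeR, adjusted p = 0.239), 0.58 for C1qb (adjusted p = 0.209) and 0.19 for C1qc (adjusted p = 0.695). For C3, C4b and C5ar1 the values were -0.09, 0.02 and -0.18.

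Levels of different genes can be compared only per length, here as CPM per kilobase of exon. In controls C1qb was highest at 118 ± 11.3 (SD, n = 5), followed by C1qc at 50.8 ± 3.80, C4b at 23.0 ± 6.68 and C1qa at 17.0 ± 11.9, the latter pair within their spread. C3ar1 (9.10 ± 2.31), C3 (8.44 ± 1.60) and Itgam (7.26 ± 1.38) followed within their spread, and then Itgb2 (4.44 ± 1.68) and C5ar1 (2.95 ± 0.52). The Itgam value divides by all its exon bases, of which Gm49368 covers 68.7%. It may therefore be too low, and the place of Itgam in this order is uncertain. After ECL, C1qa was at 132 ± 31.6 (n = 4) and C1qc at 106 ± 10.4, within their spread, both below C1qb at 338 ± 50.0. After SCL, C1qa (110 ± 68.7, n = 4) and C1qc (111 ± 36.5) stood at one level, below C1qb at 302 ± 153. C1qa thus stood below C1qc per length in controls and within its spread after either lesion.

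The members are mostly genes of microglia, and the summed microglial gene lists were higher after both lesions, though not each gene in them. A reference of 8 genes that microglia share (among them Aif1, Csf1r, Spi1, Laptm5, Ptprc, Irf8 and Fcer1g) summed to 352 to 453 CPM in controls, 689.9 to 1192 CPM after SCL and 629 to 979 CPM after ECL. Of the 7 tested, 4 rose after SCL and 3 after ECL. Aif1, the gene of Iba1, rose by 1.18 after SCL and 0.91 after ECL, and Fcer1g, a signalling chain of Fc receptors, by 1.43 and 1.48. Ptprc and Laptm5, by contrast, had -0.12 and 0.29 after SCL and -0.58 and -0.15 after ECL, without a call. Irf8 had 0.32 after SCL and -0.10 after ECL, also without a call. Of 9 homeostatic microglial genes tested, 8 rose after SCL and 4 after ECL, among them Olfml3 by 1.33 and 0.99. Of 12 activation genes, 7 rose after SCL and 6 after ECL. The largest change was that of Tyrobp, the signalling adaptor of Trem2, by 2.49 and 2.59. Without a call, Lpl, Clec7a, Spp1, Gpnmb and Axl had 0.10, 0.36, 1.38, 0.47 and 0.28 after SCL. After ECL they had -0.30, 0.08, 0.49, 0.08 and 0.22. Of all genes tested, 13.1% were called higher after SCL and 15.2% after ECL. In bulk tissue, more cells of a type and more RNA per cell cannot be told apart. Border macrophage markers summed to 31.2 to 76.5 CPM in controls, 72.6 to 120 CPM after SCL and 58.1 to 97.8 CPM after ECL, and 2 of 3 tested rose after SCL and 1 of 3 after ECL, while Mrc1 was at a mean of 3.73, 2.51 and 2.33 CPM. Their part in the members' values was not tested. Of 9 astrocyte markers 4 rose after SCL, and 3 rose and 1 fell after ECL, while C3 and C4b, which astrocytes can express, were not called.

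The members were also set against the mean log2 CPM of the 8 reference genes within each library. The reference mean itself was higher than in controls by 0.80 after SCL and 0.50 after ECL (exact two-sided permutation tests, p = 0.0159 each, the smallest possible). Between ECL and SCL its difference was -0.30 (exact permutation test, p = 0.0286, the smallest possible). In the same test the homeostatic list had -0.34 (exact permutation test, p = 0.0571) and the activation list -0.19 (exact permutation test, p = 0.457). These p-values were not adjusted. Relative to the reference mean, the difference of C1qa from controls was 2.07 after SCL and 2.79 after ECL, that of C1qb 0.44 and 1.01, and that of C1qc 0.27 and 0.55. For C3ar1 the differences from the reference were -0.06 and -0.07. Itgam was at -0.17 and -0.47, Itgb2 at 0.07 and -0.14, C3 at -0.53 and -0.34, C4b at -0.50 and -0.18, and C5ar1 at -0.56 and -0.45. None of the 27 differences passed after adjustment over 27 exact tests, in which the smallest adjusted p was 0.0857. That value was reached by C1qa after both lesions, by C1qb, C1qc and Itgam after ECL, each at the smallest p the libraries allow. At that p a difference passes only if many of the 27 reach it together. These tests therefore cannot decide whether a single member differed from the reference. The values relative to the reference also carry the length trend described above. The C1q genes are in the shortest class, whereas C3, C4b and Itgam have 5143, 5695 and 5024 exon bases. Differences from the reference with the offset for length and GC content were not tested. The difference of Itgam from the reference between ECL and SCL was -0.30 (exact permutation test, p = 0.114, adjusted p = 0.237).

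**Figure D5:**
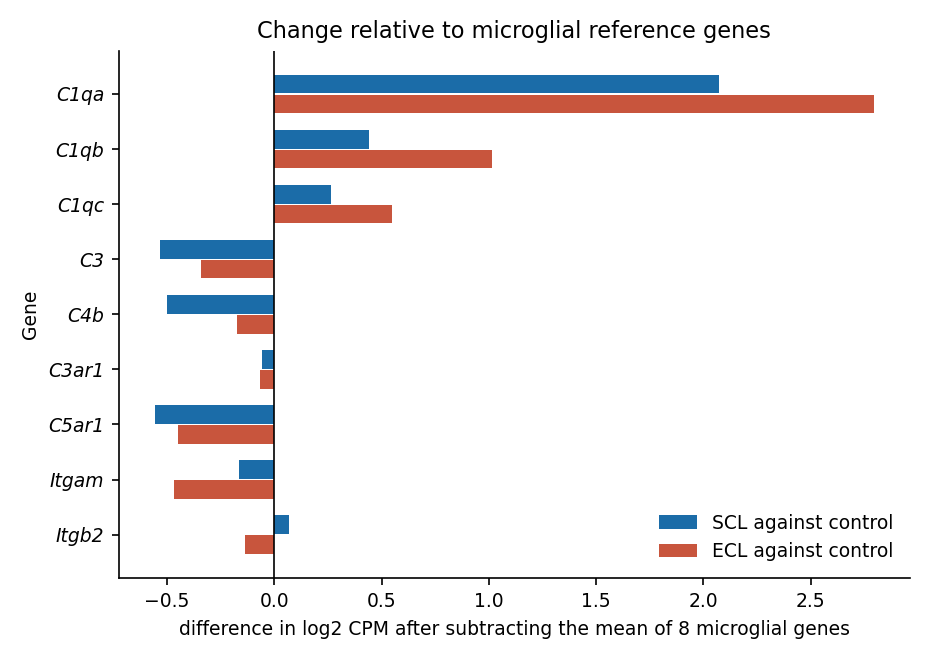
Difference in log2 CPM between each lesion and the controls after the mean of 8 microglial reference genes was subtracted in each library (horizontal axis, bars are differences of group means), for the 9 complement genes. The bars of the 3 C1q genes point to the right after both lesions, up to 2.79 for C1qa after ECL. The values carry no offset for length and GC content. None of the differences passed an exact permutation test after adjustment, where a pass needs many of them at the smallest possible p together.

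Of the other complement genes, a list of 54, 20 reached the minimum of counts in the SCL comparison. Serping1, the gene of the C1 inhibitor that blocks the proteases of the C1 complex, rose by 0.58 (edgeR, adjusted p = 0.0265). Cd46, a membrane regulator that protects cells from C3b and C4b, fell by 0.78 (edgeR, adjusted p = 0.0296), and Calr, an endoplasmic reticulum chaperone that can bind C1q, fell by 0.50 (edgeR, adjusted p = 0.0145). After ECL 19 were tested, and Serping1 rose by 0.91 (edgeR, adjusted p = 0.00126) and Sez6, a neuronal membrane protein with complement control domains, by 0.54 (edgeR, adjusted p = 0.0357). So 1 of 20 rose and 2 of 20 fell after SCL, and 2 of 19 rose after ECL, at or below the shares of all genes tested. Over the list the log2 fold changes had medians of 0.15 (SCL) and 0.06 (ECL). Serping1 was at 48.6 ± 8.50 CPM (SD, n = 5) in controls, 72.8 ± 14.8 after SCL (n = 4) and 90.8 ± 12.2 after ECL (n = 4), which overlap between SCL and control and not between ECL and control. With edgeR's own filter, 38 were tested per lesion. Cd59a, which blocks the membrane attack complex, then rose by 0.93 after SCL (adjusted p = 0.0431), and Cr2 fell by 1.48 after SCL (adjusted p = 0.0221) and by 1.27 after ECL (adjusted p = 0.0237). Vtn and C7 fell by 2.13 and 1.77 after ECL (adjusted p = 0.0238 and 0.0361). Their means were near the floor, 1.41 and 1.31 CPM in controls and 0.31 and 0.35 CPM after ECL. With this filter 2 of 38 rose and 3 fell after SCL, and 2 rose and 4 fell after ECL. The shares of all genes under this filter are not given here. Symbols with a count numbered 29987 to 40042 in controls and 28685 to 33342 after ECL. Whether this bears on such low values was not tested. Cfb, the factor B gene of the alternative pathway, was listed at 0 in each library. Its overlap with other annotated genes was not checked, so the 0 is not read as absence of expression. Between ECL and SCL none of 21 tested with the minimum of counts was called.

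For each member the genes whose log2 CPM deviated most alike from the group means over 13 libraries were found among 11640 genes. C1qb and C1qc shared Eif1 (Pearson r = 0.937 and 0.894), which for C1qb was followed by Tnfrsf21 (0.928) and Dnajc8 (0.916) and for C1qc preceded by Snrpc (0.898) and followed by Cisd3 (0.882). C1qa was most like Brk1 (0.975), Rab5b (0.965) and Fastk (0.964). C3ar1 was most like Lipa (0.941), a lysosomal lipase, Fxyd5 (0.924) and Cst7 (0.906), an activation marker of microglia. Itgam was most like Etv3 (0.929), Trim12a (0.902) and Grip1 (0.882), and Itgb2 like Zfp759 (0.898), Csf2rb2 (0.883) and Mcm8 (0.879). C4b was most like Hdac11 (0.979), Scap (0.979) and Wipi2 (0.972), C3 like Rnf135 (0.895), Foxred1 (0.893) and Med17 (0.876), and C5ar1 like Srrm1 (0.931), Ppig (0.926) and Parg (0.914). Within the members, Itgam and Itgb2 did not deviate together (r = -0.01), and C3 and C5ar1 deviated in opposite directions (r = -0.75). These coefficients over 13 libraries that share depth and composition describe likeness of pattern only.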

How the data were processed

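RNA from 13 CA1 isolates (5 control, 4 SCL, 4 ECL) was amplified from polyadenylated RNA with a low-input kit. According to the labels and methods, the authors trimmed reads with cutadapt 3.5, mapped them with STAR 2.7.8a to mm10 and counted them with featureCounts 2.0.1. The authors deposited whole-number counts per gene symbol, unstranded and not normalized. Of the values from 1 to 20, 63.0% to 74.3% were even per library, so counts divided by 2 were tried as well. Library totals, given above, set the counting precision.

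From these counts each comparison was fitted with edgeR 4.0.16 (R 4.3.3, quasi-likelihood test, two-sided, Benjamini-Hochberg over all genes tested) on genes whose normalized counts averaged 150 or more, as in the study's methods, with TMM factors over the genes tested. The 9 members passed in each comparison. Standard errors were derived from each log2 fold change and its F statistic. Plotted and listed CPM share 1 TMM scaling, with a pseudocount of 0.5 for log2 values. Exact permutation tests used scipy 1.17.1. Alternatives included DESeq2 1.42.0, other scalings and filters, covariates, an offset for length and GC content (mgcv 1.9.3) and leaving out each library. Code was tested on simulated data. Annotation came from GENCODE M21 on GRCm38, an earlier release on the build the authors used, and promoters from RefSeq. The replicate numbers of the labels were not found to pair the samples.

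Named were the 9 members, other complement genes called in any comparison with C5ar2, Itgax and C4a, and the 3 genes most like each member. The members, lists and tests were chosen with earlier results of these data known. One gene of the microglial reference is not reported here by itself. No library was left out.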

Additional observations from a re-analysis of the deposited data

Results flagged for a closer look

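For C5ar1 after ECL, replicate 1 stood apart from the other 3 libraries of its group at 4.20 CPM, with the others between 8.87 and 10.0 CPM. It was the only one of 27 pairs of a member and a group in which the lowest or highest library was farther from the rest than Dixon's limit on the log2 scale, and chance gives about 1 in 20. Without ECL replicate 1 the log2 fold change of C5ar1 after ECL was 0.35, and it was not called.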

How the results depend on the processing

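C1qa, C1qb and C1qc after both lesions and Itgam after SCL kept direction and call in each of 21 alternatives. The calls of C3ar1 and Itgb2 after SCL were lost where the text above says so, and C3ar1 was also lost with the columns' heading number as a replicate block (0.69). C3ar1 after ECL was called with TMM factors over all symbols and with every symbol tested (0.61 each).

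After SCL 2848 genes were called, 5390 with every symbol tested, 1824 with the heading number as a replicate block, 2342 with the replicate block of the labels, and 1679 to 2797 with each library left out. After ECL 3114 were called, 8034 with every symbol, 2663 with the replicate block and 2088 to 3062 with each library left out. Between ECL and SCL 0 were called, 62 with DESeq2 (1 member, Itgam), 217 with every symbol, 1 with all libraries in 1 fit, 1 with a sex term, 0 with the replicate block and 0 to 54 with each library left out. The lowest SCL count and the 54 were both without SCL replicate 3. Members called were 4 after SCL and 3 after ECL with the replicate block. Same-numbered libraries deviated with correlations from -0.16 to 0.54, not all over 0.1, so the numbers were not taken as pairs.

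The chain ratios that passed (adjusted p = 0.0357) had adjusted p-values of 0.0514 to 0.0804 with each library left out, where the smaller groups raise the smallest exact p, and 0.129 without control replicates 4 and 5. The ratio of C1qa to C1qb between ECL and SCL was -0.064 to 0.26 with each library left out.

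Values near 0 changed sign, none of them a call. Itgam after ECL was -0.039 with a sex term, -0.0054 with the heading number as a block, -0.019 without control replicates 4 and 5, and -0.060 to 0.11 with each library left out. C5ar1 after ECL was -0.033 with the offset for length and GC content. Between ECL and SCL, a sex term gave 0.049 for C1qc, 0.030 for C3 and -0.084 for C4b, and leaving out each library gave 0.068 to 0.79 for C1qa, 0.0051 to 0.58 for C1qb, -0.18 to 0.19 for C1qc, -0.11 to 0.12 for C4b and -0.31 to 0.061 for C5ar1. Relative to microglial genes, C3ar1 between ECL and SCL was 0.029 with the homeostatic list, C5ar1 between ECL and SCL -0.010 and Itgb2 after SCL -0.15 with the activation list. With each library left out, C3ar1 was -0.15 to 0.061 after SCL, -0.16 to 0.022 after ECL and -0.13 to 0.066 between them, and Itgb2 -0.065 to 0.25 after SCL and -0.27 to 0.044 after ECL. C5ar1 fell under the minimum of counts when counts were divided by 2 and has no value there. The cause of these changes was not tested.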
